A study of Mus musculus with 10 samples.

Results

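Transcripts of the adult hemoglobin genes and of Alas2, the red cell enzyme that starts heme synthesis, were followed in single-cell libraries of SW1 melanoma tumors. The 5 members were Hba-a1 and Hba-a2 (alpha globin), Hbb-bs and Hbb-bt (beta globin) and Alas2, out of 32285 genes in the matrices. They were chosen by name, with earlier results of these data in view, so their levels are given here as a description. SW1 is a mouse melanoma line, and it was grown under the skin of the right flank of female C3H/HeJ mice of 4 to 6 weeks. The mice then received plain drinking water (control) or water with 100 mM of the dietary sugar L-fucose (L-fuc). Tumor cells were sorted for CD45, the surface protein of white blood cells encoded by Ptprc, and profiled in droplets (10x Genomics), where each captured transcript counts as 1 unique molecular identifier (UMI). The 5 gene expression libraries were pretreatment at day 0, which the labels give as control water, and a control and an L-fuc library at each of day 7 and day 21. The labels give 3 mice at day 0, and 5 or 6 per arm according to which protocol in them is read. By the methods text tumors were harvested at both day 7 and day 21. How many mice stood behind each library of those days is therefore not known. One protocol in the labels gives the L-fuc dose in nM and not mM. Tumors grew for 10 days before treatment by the labels, and for longer by the methods text. Each condition had 1 library and thus no replicates, so conditions are compared by value only, without a test. All intervals are 95% intervals for counting error only, and they are too narrow as a guide to the next tumor, because hemoglobin UMIs were clumped in few barcodes.

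Hemoglobin carries oxygen as a tetramer of alpha and beta chains, each with a heme group. Developing red cells make the chains and the heme together, and the mature red cell of a mouse has lost its nucleus, carries no CD45 and keeps only remnants of its RNA. Red cells in a tumor suspension can enter a droplet whole, and when they burst, their RNA can be captured in droplets with other cells. The members were therefore read in 3 groups of barcodes that should not express them. These were T cells (at least 2 UMIs of Cd3e, Cd3d and Cd3g, which encode the T cell receptor complex), macrophages (at least 10 UMIs of the complement genes C1qa, C1qb and C1qc) and tumor cells (a UMI of Sox10, a melanocyte lineage factor, and none of Ptprc). Barcodes with at least 200 genes and at most 10% mitochondrial UMIs were kept, which left between 1236 and 19298 barcodes and between 14377573 and 116085791 UMIs per library. All 5 members passed the minimum of 30 UMIs, taken over the 2 libraries together, in every comparison of libraries. At pretreatment each member had at most 4 UMIs, and in L-fuc day 21 Hba-a2, Hbb-bt and Alas2 had 5, 2 and 0. There they passed through the other library alone, so their calls are a description and no test. The libraries shared between 3 and 433 cell barcodes pairwise, and 2 barcodes had at least 10% hemoglobin UMIs in both day 7 libraries. Although the labels give a CD45 sort, 9137 of the 19298 kept barcodes of control day 7 passed the tumor cell gate, and Ptprc was found in 27.0% of all its kept barcodes under 1% hemoglobin.

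The alpha globin genes lie on chromosome 11 of the mm10 (GRCm38) genome, the beta globin genes on chromosome 7 and Alas2 on chromosome X. Hba-a1 (ENSMUSG00000069919) spans chr11:32283511-32284465 on the plus strand and Hba-a2 (ENSMUSG00000069917) spans chr11:32296489-32297298. Hbb-bt (ENSMUSG00000073940) spans chr7:103812524-103813996 and Hbb-bs (ENSMUSG00000052305) spans chr7:103826534-103828096, both on the minus strand. Alas2 (ENSMUSG00000025270) spans chrX:150547375-150570638 on the plus strand, all in the GENCODE annotation. The transcripts of Hba-a1 and Hba-a2 were 99.8% identical over 538 aligned bases and those of Hbb-bs and Hbb-bt 93.1% identical over 625 bases. Cell Ranger leaves out reads that align to more than 1 gene, and C3H mice carry another beta globin haplotype than the C57BL/6 reference. How UMIs fell between the genes of a pair is therefore uncertain. Reads that both genes of a pair share were lost from both, so the sum of the nearly identical alpha pair, and with it the share of alpha globin, may be too low by an amount that was not measured.

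The 120 bases before the RefSeq start are shown for members whose transcripts were high in the same barcodes, to show what their promoters share. They are RefSeq sequences of GRCm38.p6, 5′ to 3′ on the strand of the gene. The RefSeq starts differ from the ends of the GENCODE spans above, so the windows of Hba-a1 and Hbb-bs lie within those spans and those of Hbb-bt and Alas2 lie partly within them. Capitals mark matches on either strand to TATAA, the core of the TATA box, to CCAAT, to AGATAA, a form of the GATA factor site, and to CCACCC, a form of the CACCC site of red cell genes. The windows are chr11:32283552-32283671 for Hba-a1, chr7:103827929-103828048 for Hbb-bs, chr7:103813924-103814043 for Hbb-bt and chrX:150547297-150547416 for Alas2.
Hba-a1: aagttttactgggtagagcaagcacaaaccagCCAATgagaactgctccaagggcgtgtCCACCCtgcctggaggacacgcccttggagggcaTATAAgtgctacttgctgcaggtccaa
Hbb-bs: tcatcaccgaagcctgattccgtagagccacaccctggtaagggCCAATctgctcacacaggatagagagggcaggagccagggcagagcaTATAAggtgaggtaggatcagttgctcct
Hbb-bt: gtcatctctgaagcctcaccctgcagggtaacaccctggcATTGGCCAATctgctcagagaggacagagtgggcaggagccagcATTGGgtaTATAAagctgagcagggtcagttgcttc
Alas2: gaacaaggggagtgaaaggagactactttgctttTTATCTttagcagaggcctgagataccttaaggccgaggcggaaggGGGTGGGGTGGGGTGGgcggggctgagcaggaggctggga
Hba-a2 was identical to Hba-a1 over 247 aligned bases of the 250 before its start. Each globin gene had TATAA 23 to 30 bases and CCAAT 71 to 91 bases before the start. CCACCC lay 56 to 61 bases before the start of Hba-a1 and was not found in the stretch shown of Hbb-bs or Hbb-bt. The shorter string CACCC, which was not marked, does occur in both of those stretches. Alas2 had neither TATAA nor CCAAT in the stretch shown, but had AGATAA on the other strand 81 to 86 bases before the start and 3 overlapping copies of CCACCC on the other strand 25 to 40 bases before it. Over the 250 bases before the start, 22.8% of 32851 mouse promoters held TATAA, 33.8% held CCAAT, 9.99% held AGATAA and 28.1% held CCACCC on either strand. In this longer window, outside the stretch shown, Alas2 also held TATAA, Hbb-bs AGATAA, and Hbb-bt CCACCC and another TATAA. A match is a description of the letters and no evidence of binding.

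In the kept barcodes, hemoglobin transcripts were nearly absent before treatment, abundant at day 7 in both arms and low again at day 21. Over all deposited barcodes the day 21 level of control was 1.12 times that of day 7, but these 2 sets were not alike. The deposited barcodes of control day 7 included none with 150 to under 200 genes, against 132 in control day 21. Of the 34 barcodes of control day 21 with at least 10% hemoglobin UMIs, 32 had under 200 genes. The 4 hemoglobin genes together had 0.348 UMIs per 1000000 UMIs of the library (CPM; 0.113 to 0.812) at pretreatment, which was 5 UMIs. They had 2119.5 CPM (2111 to 2128) in control day 7 and 7788 (7769 to 7806) in L-fuc day 7. At day 21 the control library had 395 CPM (386 to 404) and the L-fuc library 5.92 (4.79 to 7.23). L-fuc day 7 was thus the highest and pretreatment the lowest of the 5 kept libraries, and at day 21 both arms lay between pretreatment and control day 7.

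Each member followed this order in the 3 higher libraries, and Hba-a1 and Hbb-bs in all 5. Hbb-bt, Hba-a2 and Alas2 had too few UMIs in pretreatment and L-fuc day 21 to order those 2 libraries, with 0 against 2, 0 against 5 and 0 against 0. Hbb-bs had 0.278 CPM at pretreatment, 1535 in control and 5636 in L-fuc at day 7, and 274 in control and 3.02 in L-fuc at day 21. Hba-a1 had 0.0696, 384, 1348, 85.4 and 2.47 CPM in the same order. Hbb-bt had no UMI at pretreatment and then 169, 694, 27.4 and 0.123 CPM. Hba-a2 had none at pretreatment and then 31.8, 110.1, 7.70 and 0.308. Alas2 had 32.9 CPM in control day 7, 79.7 in L-fuc day 7 and 5.37 in control day 21, and no UMI in the kept barcodes of pretreatment or L-fuc day 21. A count of 0 there allows up to 0.209 and 0.185 CPM, the level of 3 UMIs.

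**Figure D1:**
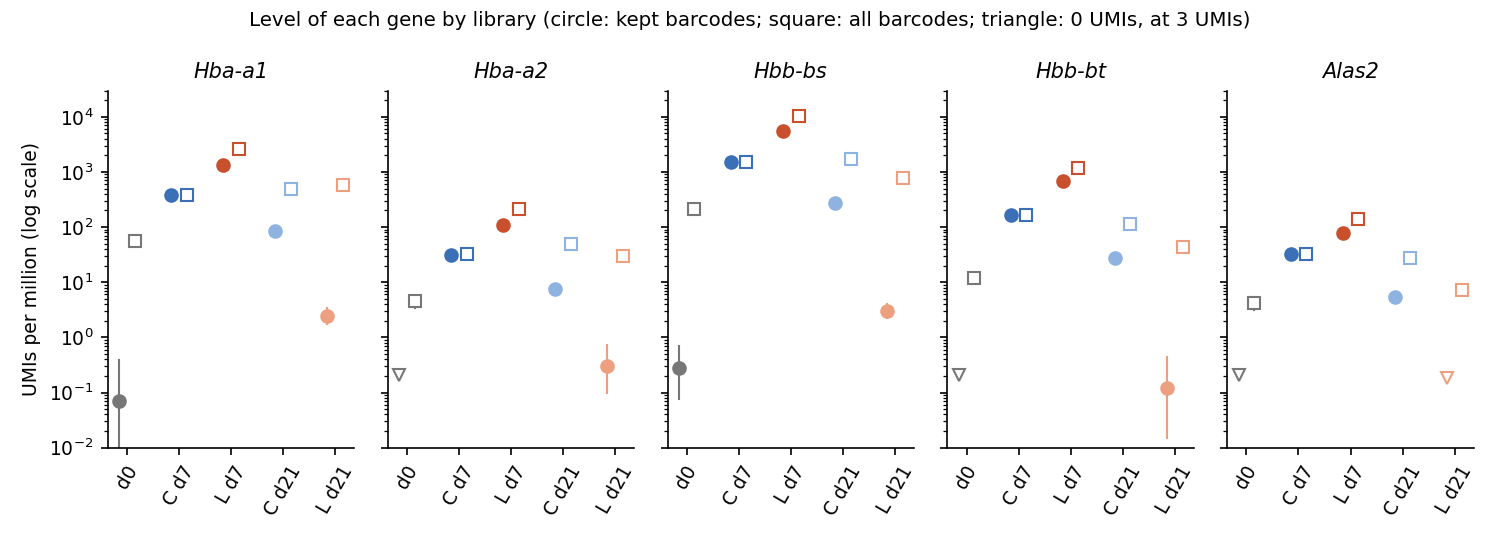
CPM (log scale) of each gene in pretreatment (d0), control (C) and L-fuc (L) libraries at day 7 (d7) and day 21 (d21), in kept barcodes (circles) and in all deposited barcodes (squares), with 95% counting intervals; triangles stand at 3 UMIs where none was found. Circles and squares coincide in control day 7 and lie far apart in pretreatment and L-fuc day 21, where Alas2 had 0 UMIs in kept barcodes and 4.16 and 7.35 CPM in all barcodes.

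At day 7, hemoglobin was 3.67-fold (3.66 to 3.69) higher in CPM in L-fuc than in control over kept barcodes. The ratio was 3.51 for Hba-a1, 3.46 for Hba-a2, 3.67 for Hbb-bs, 4.11 for Hbb-bt and 2.42 for Alas2. All 5 members were at least 2-fold higher, as were 10.7% of the 15986 genes with at least 30 UMIs in these 2 libraries together. At least 2-fold lower were 1.63%. The study also removed barcodes with few genes for their UMIs, log10 genes divided by log10 UMIs under 0.8. With that filter as well, chosen here after the data were seen, the ratio was 1.73. It left 264 of the 590 kept barcodes of L-fuc day 7 with at least 10% hemoglobin and all 652 of control day 7. Without any filter on barcodes it was 6.86, on deposited sets that were not alike. Those of control day 7 included none with 150 to under 200 genes, against 989 in L-fuc day 7. All these ratios were above 1, and their size depended on which barcodes were counted. More red cells and more RNA per red cell cannot be told apart in such sums.

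At day 21 the ratio pointed the other way in kept barcodes and rested on 2 barcodes. Hemoglobin in L-fuc was 0.0150 (0.0121 to 0.0183) of control over kept barcodes. All 5 members were at least 2-fold lower, as were 1.53% of 13750 genes (3.26% were higher). Hba-a2, Hbb-bt and Alas2, with 5, 2 and 0 UMIs in L-fuc, passed the minimum of UMIs through control alone. Alas2 was at least 29.1-fold lower, with 0 UMIs against 111, of which 48 and 55 were in 2 barcodes. However, 96.6% of the hemoglobin UMIs of control day 21 lay in the same 2 kept barcodes, with 4454 and 3430 hemoglobin UMIs. Over kept barcodes with under 20 hemoglobin UMIs, a limit chosen after the distribution was seen, the ratio was 0.522 (0.407 to 0.664). Over all deposited barcodes it was 0.611 (0.601 to 0.620) for the 4 genes together, but 1.20 for Hba-a1 and 0.457 for Hbb-bs, and 0.265 (0.216 to 0.322) for Alas2, so Hba-a1 no longer had the direction of the other members.

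Between time points all members had 1 direction over kept barcodes, while over all deposited barcodes the ratios were closer to 1 and those between the control libraries of day 21 and day 7 differed in direction. In control day 7 against pretreatment, all 5 were at least 2-fold higher, as were 19.5% of 15031 genes. All 5 passed the minimum of UMIs through control day 7 alone. Hbb-bs was 5516-fold higher (2154 to 20246) on only 4 pretreatment UMIs, and Alas2 at least 158-fold higher. Over all deposited barcodes these ratios were 7.20 for Hbb-bs, 7.87 for Alas2 and 7.39 for the 4 hemoglobin genes together. In control day 21 against control day 7, all 5 were at least 2-fold lower, as were 4.36% of 15230 genes, with ratios from 0.163 for Hbb-bt and Alas2 to 0.242 for Hba-a2. Over all deposited barcodes this ratio was above 1 for Hba-a1 (1.26), Hba-a2 (1.53) and Hbb-bs (1.12), below 1 for Hbb-bt (0.677) and Alas2 (0.850), and 1.12 for the 4 hemoglobin genes together. The deposited barcodes of control day 7 included none with 150 to under 200 genes, against 7 in pretreatment and 132 in control day 21. Ratios to control day 7 over all deposited barcodes therefore compared unlike sets.

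The libraries held hemoglobin in 2 forms, a low count in most barcodes and a high count in few, with some barcodes between them at day 7. For control day 7 the median kept barcode had 1 hemoglobin UMI, 55.0% had at least 1, and 18182 of 19298 had under 20. These 18182 barcodes held 6.34% of the hemoglobin UMIs, and the 829 barcodes with 100 or more held 86.6%. In L-fuc day 7 the median was 4 UMIs and 96.3% of barcodes had at least 1. There, 10678 of 12265 barcodes had under 20 UMIs and held 6.88% of the hemoglobin, against 88.5% in 822 barcodes with 100 or more. Barcodes with 100 or more were thus 4.30% of the kept barcodes in control and 6.70% in L-fuc, and most of the remaining barcodes had a higher low count in L-fuc. Between the forms, 287 barcodes of control (1.49%) and 765 of L-fuc (6.24%) had 20 to 99 hemoglobin UMIs. Alas2 was found in 38.0% and 24.2% of these, against 86.4% and 86.9% of those with 100 or more.

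At pretreatment and day 21 the low form was at or near 0. In pretreatment 1658 of 1660 kept barcodes had no hemoglobin UMI. For control day 21, 1762 of 1981 had none. In L-fuc day 21, 1160 of 1236 had none, and the highest kept barcode had 6. In control day 21, a single kept barcode, with 41 UMIs, lay between those with under 5 and the 2 with the most, so the low and the high form were well apart.

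**Figure D2:**
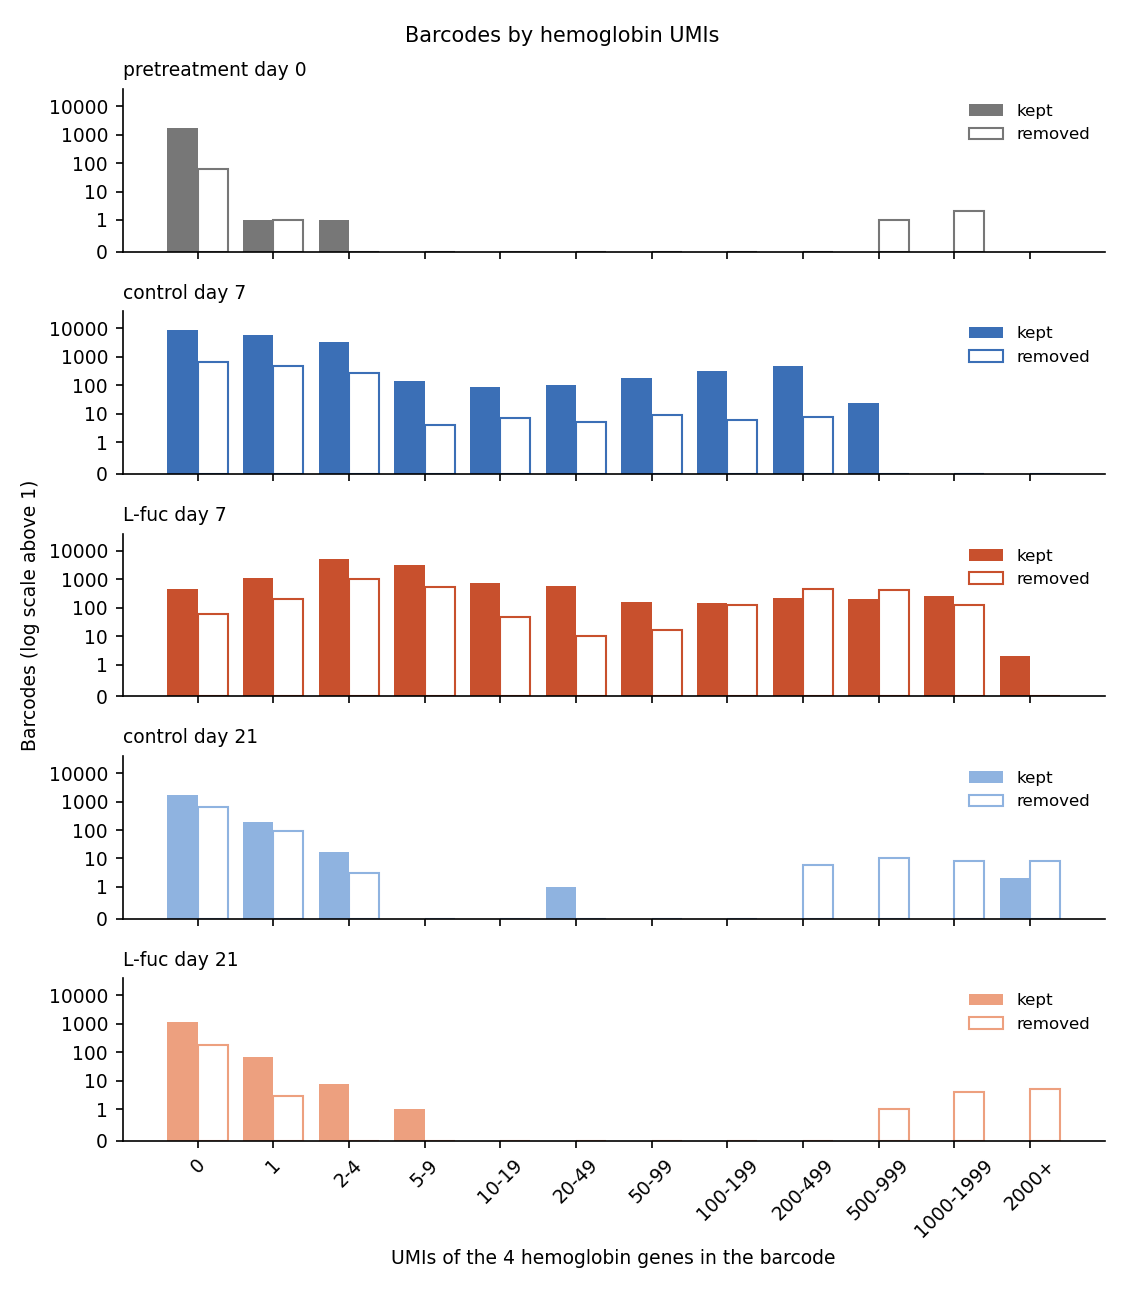
Number of barcodes (log scale above 1) by their UMIs of the 4 hemoglobin genes, for kept barcodes (filled bars) and barcodes removed by the filters (open bars) of each library. At day 7 most barcodes lie under 20 UMIs with a second group at 100 or more, and in pretreatment and L-fuc day 21 all barcodes with 500 or more are among the removed ones.

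Barcodes with at least 10% of their UMIs from hemoglobin, called hemoglobin-rich here, were chosen by the members themselves, so their hemoglobin is no finding. Among all deposited barcodes there were 3 in pretreatment (0.174%), 659 in control day 7 (3.18%) and 1722 in L-fuc day 7 (11.3%). Control day 21 had 34 (1.23%) and L-fuc day 21 had 10 (0.700%). Of the rich barcodes of these 5 libraries, in the same order, the filters kept 0, 652, 590, 2 and 0. The minimum of genes was missed by 3, 0, 1102, 32 and 9 of them, and the 7 removed from control day 7 were over the mitochondrial maximum. Near the limits, 153 kept barcodes of control day 7 had 5% to under 10% hemoglobin and 178 had 10% to under 15%, against 116 and 57 in L-fuc day 7.

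Hemoglobin-rich barcodes of control day 7 were unlike those of the other libraries. They had a median of 431 genes and 19.8% hemoglobin, and none reached 50%. For L-fuc day 7 the medians were 176 genes and 51.3% hemoglobin. For control day 21 they were 121 genes and 79.1%, in L-fuc day 21 94.5 genes and 88.9%, and in pretreatment 61 genes and 90.2%. The median number of UMIs from other genes was 894 in control day 7, 487 in L-fuc day 7, 260 in control day 21, 198.5 in L-fuc day 21 and 179 in pretreatment. The hemoglobin count per rich barcode went the other way, with medians of 241 in control day 7 and 560.5 in L-fuc day 7. The deposited barcodes of control day 7 included none with 150 to under 200 genes, against 989 in L-fuc day 7, and the lowest of its rich barcodes had 219. Among kept rich barcodes the 2 libraries were closer in other RNA, with medians of 892 UMIs from other genes in control and 785 in L-fuc. Their medians of hemoglobin were 241 and 857 UMIs, or 19.9% and 45.2%, and those of genes 431 and 284.

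Ptprc and Malat1 were found in a smaller share of these barcodes than of the others. Ptprc was found in 71 of the 659 rich barcodes of control day 7 (10.8%), against 27.0% of kept barcodes under 1% hemoglobin. Within L-fuc day 7 it was found in 175 of 1722 (10.2%), against 38.5%. These rich barcodes include those removed by the filters. Among kept rich barcodes Ptprc was found in 70 of 652 (10.7%) in control and in 122 of 590 (20.7%) in L-fuc. Malat1, a long noncoding RNA held in the nucleus, was found in 94.99% and 77.7% of the rich barcodes of control and L-fuc at day 7, against 99.1% and 93.6% of the others. Among kept rich barcodes it was found in 94.9% and 85.8%. It was found in 11 of 34 rich barcodes of control day 21, in 2 of 10 of L-fuc day 21 and in none of 3 of pretreatment, against 77.2%, 94.98% and 75.8% of the others. These shares were not matched for depth, and the rich barcodes had fewer UMIs from other genes.

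Alas2 was found where hemoglobin was high. In control day 7 it was found in 1.36% of kept barcodes without hemoglobin, in 71.5% of those with 100 to under 200 hemoglobin UMIs, in 96.0% of those with 200 to under 500 and in all 25 with 500 or more. In L-fuc day 7 it was found in 1.97% of barcodes without hemoglobin and in all 261 with 1000 or more. Of the rich barcodes, 84.1% in control day 7, 85.0% in L-fuc day 7, 31 of 34 in control day 21, 10 of 10 in L-fuc day 21 and 3 of 3 in pretreatment had an Alas2 UMI. All the Alas2 of pretreatment and L-fuc day 21 was therefore in barcodes that the filters removed.

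A single Alas2 UMI marked a different set of barcodes from several. For control day 7, the 464 kept barcodes with 1 Alas2 UMI had a median of 2 hemoglobin UMIs, and 291 of them had under 20. The 354 with 2 to 4 had a median of 198, and the 309 with 5 or more had a median of 333 with none under 20. For L-fuc day 7 the medians were 7, 231 and 1065 for 803, 248 and 456 barcodes. In control day 21, 8 of the 10 kept barcodes with Alas2 had 1 UMI each and at most 1 hemoglobin UMI. Alas2 was thus also part of the low form: barcodes under 20 hemoglobin UMIs had 20.1 Alas2 UMIs per 1000 hemoglobin UMIs in control day 7 and 14.8 in L-fuc day 7, against 15.5 and 9.99 in barcodes with 100 or more.

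The low count was of like size in T cells, macrophages and tumor cells. The 3 gates overlapped: 355 barcodes of control day 7 and 473 of L-fuc day 7 passed both the T cell and the macrophage gate. Over barcodes under 20 hemoglobin UMIs in control day 7, the mean was 0.887 hemoglobin UMIs per barcode (0.840 to 0.937) in 1462 T cells. It was 0.859 (0.816 to 0.903) in 1733 macrophages and 0.845 (0.826 to 0.864) in 8863 tumor cells. The ratios between gates were 1.03 (0.958 to 1.11) for T cells over macrophages, 1.05 (0.989 to 1.11) for T cells over tumor cells and 1.02 (0.961 to 1.07) for macrophages over tumor cells. The intervals of all 3 ratios included 1.

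Within L-fuc day 7 the means were 3.94 (3.84 to 4.04) in 1610 T cells, 3.70 (3.62 to 3.78) in 2066 macrophages and 4.00 (3.93 to 4.08) in 2833 tumor cells. T cells over macrophages gave 1.06 (1.03 to 1.10), T cells over tumor cells 0.984 (0.954 to 1.01) and macrophages over tumor cells 0.924 (0.898 to 0.951). The intervals of the first and the last ratio excluded 1. In count per barcode these 3 gates thus differed by less than 10%, while each was more than 4-fold above control day 7. In CPM the same ratios between gates were 1.04, 1.68 and 1.61, against 1.22, 1.29 and 1.05 in control day 7. Cells with Xcr1 or Clec9a, which mark type 1 conventional dendritic cells, had 0.787 per barcode in control day 7 and 3.97 in L-fuc day 7, and NK cells, with Ncr1, had 0.859 and 3.93, in gates that were not part of the design. B cells had 1.07 (0.863 to 1.31) in 88 barcodes of control day 7 and 3.51 (3.16 to 3.89) in 102 of L-fuc day 7.

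At day 21 the low count was well under 1 UMI in all gates. For control day 21, 8 of 67 T cells (11.9%, 5.30 to 22.2), 110 of 942 macrophages (11.7%, 9.70 to 13.9) and 54 of 498 tumor cells (10.8%, 8.25 to 13.9) had a hemoglobin UMI. In L-fuc day 21, 3 of 50 T cells (6%), 30 of 415 macrophages (7.23%) and 13 of 325 tumor cells (4%) did. The intervals of the gates overlapped within each library. In pretreatment, 1 of 486 T cells, 0 of 512 macrophages and 1 of 270 tumor cells did, where 0 of 512 allows a share of up to 0.586%.

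The low count did not rise in proportion to the depth of the barcode. In control day 7 tumor cells split into 5 equal bins of total UMIs, the median depth went from 2505 to 13994 UMIs and the mean hemoglobin count from 0.854 (0.811 to 0.898) to 0.877 (0.834 to 0.922). T cells of control day 7 had 0.747 (0.652 to 0.853) in the shallowest bin and 0.908 (0.802 to 1.02) in the deepest, at median depths of 1528 and 14120 UMIs. In tumor cells the level in CPM went from 345 to 57.7 over the same bins. In L-fuc day 7 T cells, depth went from 1758 to 20051 UMIs and the count from 4.45 (4.22 to 4.68) to 3.91 (3.69 to 4.13). The shallowest bin of L-fuc day 7 tumor cells had 5.46 (5.27 to 5.65) against 3.56 to 3.81 in the other 4 bins, and was the bin farthest from its gate. A level in CPM of these genes therefore compared barcodes of unequal depth, and the count per barcode was the steadier measure.

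**Figure D3:**
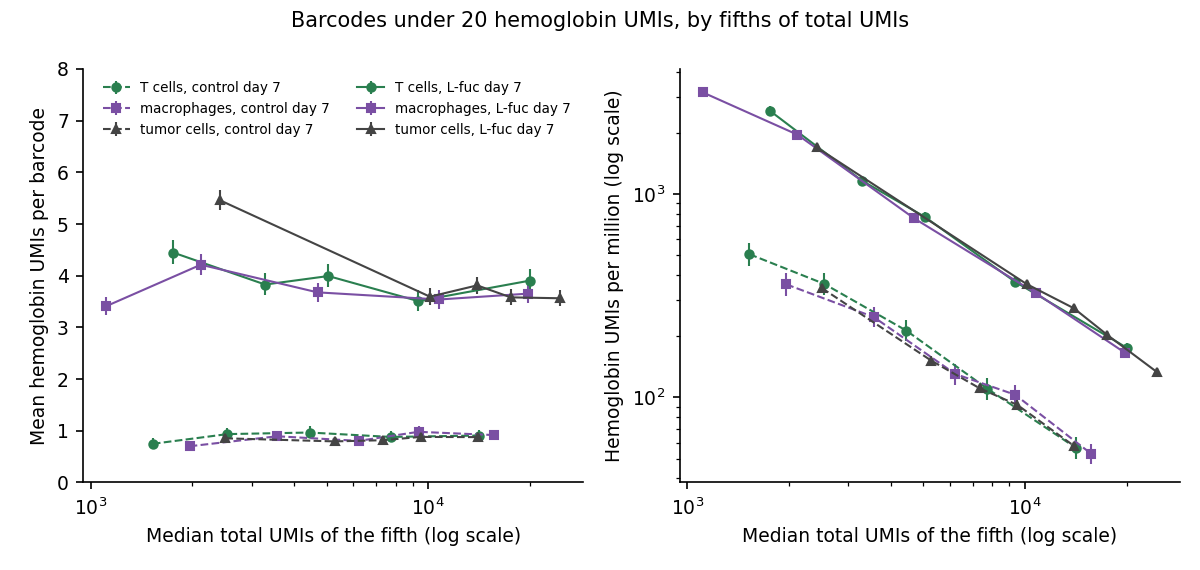
Mean hemoglobin UMIs per barcode (left) and hemoglobin CPM (right, log scale) against the median total UMIs of each of 5 bins of depth (log scale), for T cells, macrophages and tumor cells under 20 hemoglobin UMIs, with 95% counting intervals; dashed lines are control day 7 and solid lines L-fuc day 7. The counts per barcode stay near 1 in control and near 4 in L-fuc at all depths but for the shallowest tumor cells of L-fuc, while the levels in CPM are lower at higher depth.

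The share of barcodes with a hemoglobin UMI in each gate of control day 7 was taken before and after thinning to a fixed depth. In the same barcodes this share can only fall with thinning. It was 56.6% of T cells, 52.8% of macrophages and 53.8% of tumor cells before thinning. Thinned to 1000 UMIs per barcode, it was 24.2%, 17.2% and 15.4%, lowest in the deepest gate, from which thinning takes most UMIs. Barcodes under 1000 UMIs were left out, 39, 8 and 135 in these gates. For L-fuc day 7 the share was 96.8%, 96.1% and 95.2% before and 57.7%, 57.0% and 33.7% after thinning. There 42, 153 and 126 barcodes were left out.

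Barcodes with 20 or more hemoglobin UMIs were also found within the gates, and these barcodes set the level in CPM of each gate. For control day 7, 63 of 1525 T cells had 20 or more hemoglobin UMIs and held 89.6% of the hemoglobin of T cells, and 40 of the 63 had Alas2. In macrophages 46 of 1779 held 84.3%, 33 of them with Alas2, and in tumor cells 274 of 9137 held 86.9%, 193 with Alas2. Within L-fuc day 7, 241 of 1851 T cells, 253 of 2319 macrophages and 281 of 3114 tumor cells had 20 or more, of which 110, 147 and 141 had Alas2. The level was 1259.7, 691 and 786 CPM in T cells, macrophages and tumor cells of control day 7 and 3603, 4202 and 1979.8 in L-fuc day 7. Without hemoglobin-rich barcodes it was 889, 670.3 and 563 in control and 2021, 2242 and 1454 in L-fuc. Droplets with more than 1 cell were not removed by a doublet caller, and their part in these counts was not tested. At day 7, a Sox10 UMI was found in 34.8% of control and 13.3% of L-fuc T cells, so RNA of another cell type was present in the gates.

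Barcodes with Alas2 had more hemoglobin in CPM than the T cell, macrophage and tumor cell gates. They had 44062 hemoglobin CPM in control day 7 (1127 barcodes), 64918.5 in L-fuc day 7 (1507) and 54460.1 in control day 21 (10). With at least 2 Alas2 UMIs the levels were 81852, 143527 and 343215. In control day 21, the last of these was the level of 2 barcodes, which held 7884 of the 7885 hemoglobin UMIs of the 10, and the median of the 10 was 0. In barcodes with at least 1 Alas2 UMI, 6 of 14 late maturation genes of control day 7 and 6 of 15 of L-fuc day 7 were at least 2-fold higher than in barcodes without Alas2, against 0.136% and 0.204% of all genes (0.0477% and 0.191% were lower). Of the barcodes with Alas2, 344 in control day 7 and 282 in L-fuc day 7 also passed the tumor cell gate.

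Other red cell genes were then read in all deposited hemoglobin-rich barcodes, as CPM of the UMIs outside the 4 hemoglobin genes, against kept barcodes under 1% hemoglobin. The filters had removed 7 of the 659 rich barcodes of control day 7 and 1132 of the 1722 of L-fuc day 7. These CPM were not computed for kept rich barcodes alone, so the 2 arms are set side by side on unlike sets of barcodes. Genes of late red cell maturation were higher. In control day 7, 9 of 14 measured genes of this list were at least 2-fold higher and none lower, with a median log2 ratio of 1.99 against -0.16 over all genes. In L-fuc day 7, 11 of 15 were higher and none lower, with a median of 2.63 against -0.23. Over all genes, 0.505% were at least 2-fold higher in control day 7 (1.15% lower) and 0.765% in L-fuc day 7 (4.35% lower), with 20 CPM added to both sides of each ratio. Mkrn1, which encodes an E3 ubiquitin ligase, had 1871 against 104 CPM in control day 7 and 4074 against 105 in L-fuc day 7. Gpx1, a peroxidase that protects red cells from hydrogen peroxide, had 1692 against 359 and 3096 against 409. Bnip3l, which directs mitochondria to removal in maturing red cells, had 906 against 244 and 1530.2 against 229.8.

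In heme synthesis the first and the last enzyme stood apart from those between. Alas2 had 3814 against 3.39 CPM in control day 7 and 8042 against 9.26 in L-fuc day 7. Fech, which inserts iron into the ring as the last step, had 518 against 32.1 and 1098 against 26.2. With 20 CPM added to both sides, Fech alone of the 8 other genes listed for the pathway was 2-fold higher or lower at day 7. A gene under 20 CPM on both sides could differ severalfold in CPM without reaching that limit. Alad, the second enzyme of the pathway, had 53.4 against 88.4 in control day 7 and 40.7 against 82.3 in L-fuc day 7. In the list of iron and heme transport, 1 of 12 genes was higher in control day 7 and 2 of 12 in L-fuc day 7. Slc25a37, the mitochondrial iron importer mitoferrin, had 460 against 10.1 and 1032 against 10.4. Ftl1, a ferritin chain, had 5389.5 against 3464 and 10903 against 4211.

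Of the red cell membrane and skeleton genes, 2 of 11 measured were higher in control day 7 and 5 of 12 in L-fuc day 7, and none was lower. Epb41, which encodes protein 4.1 of the skeleton, had 526 against 24.5 CPM in control day 7 and 1208 against 26.8 in L-fuc day 7. Cd47, found on most cells, had 109.9 against 96.3 and 102 against 141. Of the erythroid transcription factors and the erythropoietin receptor, 0 of 6 reached 2-fold in control day 7 and Lmo2 alone did in L-fuc day 7. Lmo2 had 28.3 against 6.93 CPM in control day 7 and 47.0 against 12.9 in L-fuc day 7, which with 20 CPM added was 1.79-fold and 2.04-fold. Genes of such low level can differ severalfold in CPM without reaching 2-fold once 20 CPM are added. Epor, the receptor that early red cell precursors need, had 0 UMIs in the rich barcodes of control day 7 and 1 in those of L-fuc day 7. Of the 9 other globin genes in the matrices, 3 were measured, by at least 30 UMIs over rich and other barcodes together. Of these, Hbq1a and Hbq1b were higher, with 53.4 and 50.2 CPM in control day 7 and 131 and 104 in L-fuc day 7. In the other barcodes they had under 0.2. Both passed the minimum only through the rich barcodes, so their share of the 3 is no finding. Of the 9, 7 had 0 UMIs in the rich barcodes of control day 7 and 4 in those of L-fuc day 7.

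**Figure D4:**
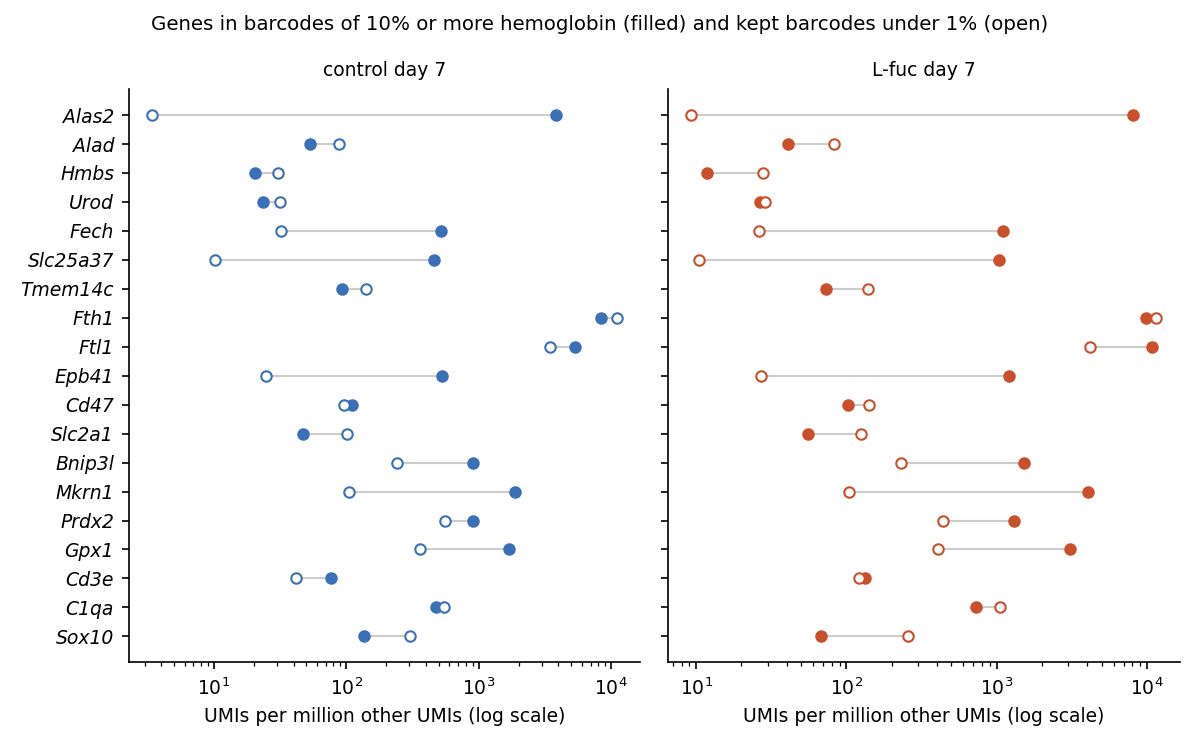
CPM of UMIs outside the hemoglobin genes (log scale) in all deposited hemoglobin-rich barcodes (filled circles) and in kept barcodes under 1% hemoglobin (open circles) of control day 7 and L-fuc day 7. Alas2, Fech, Slc25a37, Epb41 and Mkrn1 lie far to the right in hemoglobin-rich barcodes of both libraries, and Sox10 lies to the left.

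Markers of other cells were present in the rich barcodes of day 7. Gm42418, a gene model in a ribosomal RNA repeat, was part of the total behind each CPM. It made up 29.7% of that total in the rich barcodes of control and 34.6% in those of L-fuc, against 5.96% and 5.30% in the others. The CPM of other genes in the rich barcodes, here and in the lists above, are lowered by this, and CPM without Gm42418 were not computed. The 6 macrophage genes summed to 2017 CPM in control day 7 against 2523 in the others, and to 2599 against 3631 in L-fuc day 7. The 6 T cell genes summed to 261 against 146 and to 458 against 444. The tumor cell genes were lower, at 268 against 526 and 120 against 417, with 1 and 2 of them at least 2-fold lower. Neutrophil genes summed to 69.1 against 69.7 in control day 7 and to 363 against 158 in L-fuc day 7, where S100a8 and S100a9 were at least 2-fold higher. Platelet genes summed to 26.7 against 38.8 and 22.7 against 41.9, B cell genes to 15.7 against 6.80 and 9.40 against 14.7, and endothelial genes to 14.1 against 17.4 and 16.4 against 18.5, with no gene reaching 2-fold after 20 CPM were added, which few genes of so low a level could. Genes of heme breakdown and hemoglobin uptake had 1 of 8 higher in both libraries, Slc48a1, a heme transporter, with 155 against 40.9 and 298 against 43.7. Lrp1, a receptor that takes up heme bound to hemopexin, was at least 2-fold lower in L-fuc day 7. Hmox1, which breaks down heme, had 122 against 223 and 184 against 187.

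In control day 21 the rich barcodes were few, and 1 of the 34 held 57.3% of their UMIs outside hemoglobin. That barcode had 3430 hemoglobin UMIs, 55 of Alas2, 3109 genes and 365 UMIs of the C1q genes. Late maturation genes were at least 2-fold higher in 11 of 14, with a median log2 ratio of 4.49 against -0.59 over all genes, where 5.05% of genes were higher and 31.6% lower. Fech had 3110 against 30.5 CPM there, on 76 UMIs. The 6 macrophage genes summed to 27786 against 10547.

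The genes most like hemoglobin from barcode to barcode included genes of the red cell lists. Over kept barcodes of the libraries, the log2 level per 10000 UMIs of the 4 hemoglobin genes together was correlated with each of 12930 genes, as a description of barcodes that share library and depth. Alas2 was first, with a mean Pearson r of 0.565 over 3 libraries (0.711 in control day 7, 0.606 in L-fuc day 7, 0.377 in control day 21). Gm42418, a gene model in a ribosomal RNA repeat, followed with 0.246 over 5 libraries, then Ube2l6, a ubiquitin-conjugating enzyme, with 0.207. Among the next were Isg20, Slc25a37, Lars2, Tent5c, Cd24a and Epb41, from 0.152 to 0.109. Of these, Ube2l6, Isg20, Slc25a37, Tent5c, Cd24a and Epb41 lay between -0.0658 and 0.0164 in pretreatment and L-fuc day 21, where no rich barcode was kept. Gm42418 and Lars2 had 0.128 and 0.117 in L-fuc day 21, and 0.00049 and -0.0163 in pretreatment. Gm42418 made up 29.7% of the UMIs outside hemoglobin in all deposited rich barcodes of control day 7 and 34.6% of those in L-fuc day 7. In kept barcodes under 1% hemoglobin it made up 5.96% and 5.30%. Among kept rich barcodes the order of the arms turned, with 29.8% in control and 25.3% in L-fuc.

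The proportion of alpha globin in rich barcodes was alike in 4 libraries and stood apart in L-fuc day 21. These are shares of UMIs and are not scaled for transcript length. In the rich barcodes, alpha globin made up 21.5% (20.3 to 22.8) of hemoglobin UMIs in pretreatment, 19.05% (18.9 to 19.2) in control day 7, 19.3% (19.2 to 19.4) in L-fuc day 7 and 22.6% (22.2 to 22.9) in control day 21. In L-fuc day 21 it made up 42.6% (42.0 to 43.2). All 10 rich barcodes of L-fuc day 21 had more than 30% alpha globin, from 35.2% to 71.5%, against 1 of 3 in pretreatment, 12 of 622 in control day 7, 163 of 1707 in L-fuc day 7 and 6 of 34 in control day 21, among rich barcodes with at least 100 hemoglobin UMIs. Without the barcode with most hemoglobin, L-fuc day 21 had 45.1%. As the rich barcodes are not replicates of a condition and came from 1 library, no test was made of this difference.

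The low form was near all deposited rich barcodes of its own library in L-fuc day 7 and above them in the controls. For L-fuc day 7 alpha globin was 19.7% (19.4 to 20.1) of the UMIs in barcodes under 20, above the 18.5% (18.4 to 18.6) of kept rich barcodes. There it was 20.2% (19.2 to 21.2) in T cells, 20.7% (19.8 to 21.6) in macrophages and 21.1% (20.4 to 21.9) in tumor cells under 20 UMIs. In L-fuc day 21 it was 46.9% (36.6 to 57.3), on 96 UMIs, too few to tell whether it lay nearer than in the controls. In the controls it was above the rich barcodes, at 24.7% (24.0 to 25.3) in day 7 and 32.1% (26.1 to 38.4) in day 21. Within control day 7 it was 22.4% (20.1 to 24.7) in T cells, 23.2% (21.1 to 25.4) in macrophages and 24.2% (23.2 to 25.1) in tumor cells.

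The share of Hbb-bt among beta globin UMIs was highest at day 7 among all deposited rich barcodes, and it depended on the filter. It was 10.4% (10.2 to 10.6) in rich barcodes of control day 7 and 10.1% (9.99 to 10.1) in those of L-fuc day 7. It was 5.32% (4.57 to 6.15) in pretreatment, 6.22% (5.98 to 6.46) in control day 21 and 5.33% (4.96 to 5.72) in L-fuc day 21. Among kept rich barcodes it was 10.4% (10.3 to 10.6) in control day 7, 11.6% (11.5 to 11.7) in L-fuc day 7 and 9.24% (8.52 to 10.0) in the 2 of control day 21. Among those removed it was 9.57% (8.18 to 11.1), 8.83% (8.75 to 8.91) and 5.67% (5.42 to 5.92). Hba-a2 made up 4.87% to 9.12% of alpha globin UMIs in the rich barcodes of the 5 libraries.

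**Figure D5:**
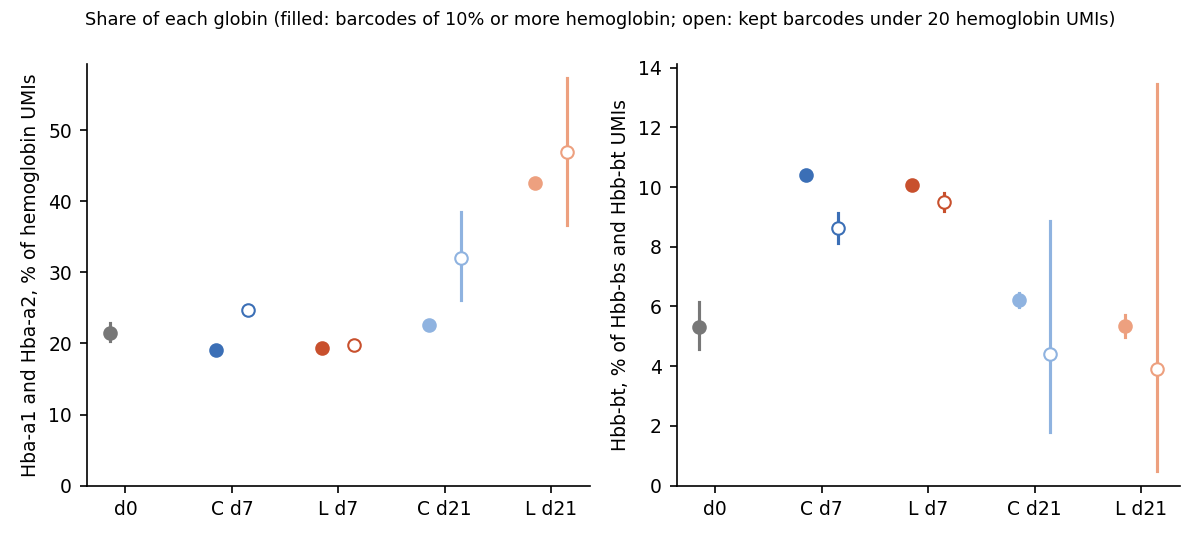
Share of alpha globin among hemoglobin UMIs (left, percent) and of Hbb-bt among beta globin UMIs (right, percent) in pretreatment (d0), control (C) and L-fuc (L) libraries at day 7 and day 21, with 95% binomial intervals; filled circles are all deposited hemoglobin-rich barcodes and open circles kept barcodes under 20 hemoglobin UMIs, left out at d0 where they held 5 UMIs. In rich barcodes, alpha globin is near 20% in 4 libraries and 42.6% in L-fuc day 21, and the Hbb-bt share is near 10% at day 7 and near 5% to 6% elsewhere.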

How the data were processed

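UMI counts per gene and barcode were deposited by the authors as 1 matrix per gene expression library, as whole counts with no normalization. The submitters' processing notes name Cell Ranger 3.0 and Seurat 4.0, the matrix headers name Cell Ranger 7.1.0, and the build was mm10. The receptor libraries of the same conditions were used only to mark barcodes with a receptor contig, and clonotype sequences were not used here. Barcodes with at least 200 genes and at most 10% mitochondrial UMIs were kept, 1660 at pretreatment, 19298 and 12265 in control and L-fuc at day 7, and 1981 and 1236 at day 21, with median UMIs of 4571, 4922.5, 2959, 4176 and 2295. No doublet caller was run.

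Levels are summed UMIs per 1000000 (CPM) with exact Poisson 95% intervals, ratios have exact conditional intervals and shares have exact (Clopper-Pearson) binomial ones. A count of 0 was bounded by 3 UMIs per library. With 1 library per condition, no p-value was computed. Ratios over all genes used genes with at least 30 UMIs, with 1 UMI added between libraries and 20 CPM added between sets of barcodes, and 2-fold as the limit for a call. The ratio between libraries was tested on simulated independent counts with 4-fold changes. The simulated ratios were centered on their median, and the reported ratios were not. Neither the clumping of UMIs in barcodes nor the ratio between sets of barcodes was simulated. The members, the 14 gene lists and the gates were chosen with earlier results of these data known. Named in each list were at most the 4 genes with most CPM in barcodes with Alas2, plus the 10 genes most correlated with hemoglobin, and the gate and marker genes, with some genes under this rule not reported here. Ahsp, Fam46c and Hbb-bh0 were not in the matrices under these symbols. Promoters came from RefSeq (GRCm38.p6) and gene positions from GENCODE. Alternatives changed the filters, the gates, the denominator, the hemoglobin-rich limit and the depth. Analyses used scipy 1.17.1, numpy 2.4.6, pandas 2.3.3, Biopython 1.88 and matplotlib 3.10.9 under Python 3.11.15.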

Additional observations from a re-analysis of the deposited data

Results flagged for a closer look

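Hemoglobin was 3.67 times as high in L-fuc as in control at day 7 and 0.0150 times as high at day 21 over kept barcodes, so the direction between arms was opposite at the 2 time points. Each arm had 1 library at each time, and the difference between the time points was not tested. The day 21 value rested on 2 barcodes of control day 21.

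Barcodes that the filters removed, which enter none of the kept-barcode comparisons, held 146448 hemoglobin UMIs per 1000000 (CPM) in L-fuc day 7 and 65273 in L-fuc day 21. Those removed from pretreatment held 66935 CPM, and those removed from the control libraries 1809.6 at day 7 and 40365 at day 21.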

How the results depend on the processing

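Of the levels, shares, gate levels and summed L-fuc over control ratios recomputed under alternatives, 41 stayed within their counting interval and 78 moved beyond it. The intervals are narrow because they cover counting error only. A level or share of 1 library has no direction, so only the L-fuc over control results could reverse. Of these, 0 reversed, but the difference of medians at day 21 was 0 and so had no direction. Ratios of single genes and between time points are not among the recomputed results, and without a filter some turned: Hba-a1 in L-fuc over control at day 21 went from 0.0289 to 1.20, and hemoglobin in control day 21 over day 7 from 0.186 to 1.12. Control day 7 was deposited without barcodes of 150 to under 200 genes, against 989 in L-fuc day 7 and 132 in control day 21. Ratios to it without a filter therefore compared unlike sets. No paired analysis was possible because each condition had 1 library. Values are ordered by time, with control before L-fuc, and those that stayed are left out. Without a filter on barcodes, the level was 286 CPM in pretreatment, 14487 in L-fuc day 7, 2359.9 in control day 21 and 1441 in L-fuc day 21. With a minimum of 500 genes it was 986 in control day 7, 3290.1 in L-fuc day 7 and 178 in control day 21, and without hemoglobin-rich barcodes 685, 1993 and 13.3. With a mitochondrial maximum of 20% it was 7832 in L-fuc day 7 and 255 in L-fuc day 21, and with hemoglobin left out of the total 7849 in L-fuc day 7. The day 7 ratio was 3.70 with the 20% maximum, 3.34 with 500 genes, 6.86 without a filter, 3.70 with hemoglobin left out of the total and 2.91 without hemoglobin-rich barcodes. The day 21 ratio was 0.658, 0.0330, 0.611 and, without hemoglobin-rich barcodes, 0.444. The difference of medians was 12.9 hemoglobin UMIs per 10000 at day 7 and 0 at day 21. Of alternatives chosen after seeing the data, barcodes under 20 hemoglobin UMIs gave ratios of 4.22 and 0.522. Keeping log10 genes divided by log10 UMIs at 0.8 or more gave 1.73 and 0.0371, with levels of 3677 in L-fuc day 7 and 185 in control day 21. The share of hemoglobin held by rich barcodes without a filter was 99.9%, 67.2%, 86.3%, 99.3% and 99.6%. It was 67.3% in control day 7 and 97.7% in L-fuc day 21 with the 20% maximum. In control day 7, L-fuc day 7 and control day 21 it was 36.0%, 43.8% and 94.8% with 500 genes, 91.6%, 92.1% and 97.1% with a limit of 1%, and 0%, 47.3% and 54.6% with a limit of 50%. In T cells, the level by receptor contig was 0 in pretreatment, 1159 in control day 7 and 2941 in L-fuc day 7. Without C1q or Sox10 UMIs it was 0, 1107 and 5327, and 29.7 in control day 21. Without hemoglobin-rich barcodes it was 889 and 2021 at day 7 in T cells, 670.3, 2242 and 20.4 in macrophages of control day 7, L-fuc day 7 and control day 21, and 563 and 1454 in tumor cells. Macrophages without Cd3 or Sox10 UMIs had 797, 5359 and 521. The strict tumor cell gate gave 495 in control day 7, 1503 in L-fuc day 7 and 1.11 in L-fuc day 21. With at least 2 Alas2 UMIs the levels were 81852, 143527 and 343215. The share of barcodes with a hemoglobin UMI, thinned to 1000 UMIs, was 0%, 22.7%, 57.0%, 3.31% and 3.04%, and thinned to 500 UMIs 16.6%, 54.9%, 3.18% and 1.94% in the last 4. Thinning to 1000 UMIs left out 200, 1324, 2721, 440 and 119 barcodes with fewer UMIs. Kept barcodes of pretreatment and L-fuc day 21 held 5 and 96 hemoglobin UMIs.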
